A study of Homo sapiens with 8 samples.

Results

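The contractile actin cytoskeleton genes described here are 10 genes taken by symbol from a fixed list: TAGLN, TPM1, TPM2, TPM4, ACTA2, ACTN1, CALD1, CNN2, MYL9 and FLNA. Of these, 9 had at least 1 probe set annotated to that single symbol, out of 19775 genes represented on the arrays, and each was read by whichever of its probe sets was brightest on average over the 8 arrays. FLNA was not analysed here. TPM2 stayed below a signal of 20 on every array, so 8 of the 10 genes were tested.

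RNA came from HaCaT, a spontaneously immortalized human keratinocyte line. In 6 groups the cells were infected with an adenoviral vector carrying LacZ (a bacterial enzyme, the control), HRAS G12V (a constitutively active form of the GTPase HRAS) or HRAS N116Y (a dominant negative form that blocks RAS signalling), and each vector was left untreated or given 5 ng/ml TGF-beta3, a cytokine, for 24 h. In the other 2 groups uninfected cells received siRNA, either a control or one directed at p53, and no TGF-beta3. All groups share the HaCaT background, and each held 1 array, so no value has a replicate within its group.

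Actin filaments become contractile when non-muscle myosin II slides along them, and the proteins encoded by these genes set how the filaments are built. Tropomyosins (TPM1, TPM2, TPM4) lie along the filament and stabilise it, caldesmon (CALD1), transgelin (TAGLN, also SM22) and calponin 2 (CNN2) bind and stiffen it, and alpha-actinin 1 (ACTN1) and filamin A (FLNA) link filaments to each other. ACTA2 encodes smooth muscle actin, and MYL9 a regulatory light chain of myosin II. Many of these genes are known targets of serum response factor (SRF) and its MRTF cofactors, which bind the CArG box, and TGF-beta is known to raise several of them in epithelial cells. In bulk RNA, more cells expressing a gene and more RNA per cell cannot be told apart.

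The promoters are shown because CArG boxes are the sequence feature for which this gene group is best known. Windows from 250 bases before to 50 bases after a transcription start in RefSeq (GRCh38.p14) were matched for 8 of the 10 genes: TPM1, TPM2, TPM4, ACTA2, ACTN1, CALD1, CNN2 and FLNA. A CArG box (CC, then 6 bases that are each A or T, then GG, searched on both strands) lay in a window of 4 of these 8, namely TPM4, ACTN1, CNN2 and FLNA, against 1.6% of 27305 genes and 1.29% of 35116 windows. In TPM4 it began 173 bases before the start, in 1 of 3 windows. In ACTN1 it began 171 bases before the start, in 1 of 4 windows. In CNN2 it began 89 bases before the start of its only window. The lines below give the 250 bases before those starts, 5′ to 3′ on the gene's strand, with the box in capitals, for TPM4 (chr19:16067288-16067537, plus strand), CNN2 (chr19:1026358-1026607, plus strand) and ACTN1 (chr14:68977567-68977816, minus strand), and then TPM1 (chr15:63048239-63048488, plus strand), a gene with a large TGF-beta3 response whose window held no such match.
TPM4: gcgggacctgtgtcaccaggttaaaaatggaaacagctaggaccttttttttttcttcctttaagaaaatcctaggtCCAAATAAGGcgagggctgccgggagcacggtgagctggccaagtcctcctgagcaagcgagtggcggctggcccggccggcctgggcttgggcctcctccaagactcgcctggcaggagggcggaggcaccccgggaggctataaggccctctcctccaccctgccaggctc
CNN2: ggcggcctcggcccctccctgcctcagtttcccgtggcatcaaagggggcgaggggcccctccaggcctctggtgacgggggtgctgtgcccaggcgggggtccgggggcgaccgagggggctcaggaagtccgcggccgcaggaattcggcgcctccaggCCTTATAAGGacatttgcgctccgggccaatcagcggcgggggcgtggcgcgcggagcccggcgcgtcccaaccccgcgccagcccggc
ACTN1: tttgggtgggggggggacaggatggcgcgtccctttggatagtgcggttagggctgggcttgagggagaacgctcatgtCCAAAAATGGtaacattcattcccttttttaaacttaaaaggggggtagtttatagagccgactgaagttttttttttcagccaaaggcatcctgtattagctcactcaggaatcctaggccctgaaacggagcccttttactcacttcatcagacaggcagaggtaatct
TPM1: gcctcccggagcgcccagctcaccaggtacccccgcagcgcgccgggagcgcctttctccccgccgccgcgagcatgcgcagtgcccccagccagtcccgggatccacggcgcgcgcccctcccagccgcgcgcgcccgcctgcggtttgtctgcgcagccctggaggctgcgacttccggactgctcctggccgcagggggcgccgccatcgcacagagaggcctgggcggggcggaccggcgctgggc
The 3 genes shown with a box had fitted log2 changes with TGF-beta3 of 0.47 (TPM4), 0.18 (CNN2) and 0.72 (ACTN1), described below. Of the genes whose windows held none, TPM1 had 1.76, CALD1 1.72 and ACTA2 0.35, and TPM2 was too dim to be tested. TPM1 was picked for its large response, and whether a box goes with the response was not tested. GGAATG, the letters bound by TEAD factors, was found in windows of ACTA2, ACTN1 and CALD1 and in those of 16.7% of all genes, and CAGACA, which holds a SMAD-binding core, in windows of TPM1 and ACTN1 and in 19.9% of all genes. A match describes these letters in these windows and is not a site shown to be used. Only exact matches were searched for, so a gene without a match can still hold a close variant. An ACTA2 window, for example, holds ccctatatgg, which differs from the CArG pattern at 1 base.

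The arrays were alike in overall scale, with a 2% trimmed mean of about 100 on all 8. The 3′ over 5′ signal of the beta-actin control probe sets, a measure of RNA integrity and labelling, was 1.16 to 1.39 on the 6 adenovirus arrays but 3.68 and 4.01 on the siRNA arrays, so gene signals were not compared between these sets. HRAS, read by 1 probe set, had signals of 315.7 and 287.0 on the LacZ arrays, 108.8 and 86.1 on those labelled HRAS G12V and 67.1 and 58.1 on those labelled HRAS N116Y (untreated, then TGF-beta3). No source used here says whether that probe set detects the vector's insert, and its signal is no check of the infection. The target of the p53 siRNA was not analysed here. All 12 measured keratinocyte markers, among them KRT5 and KRT14, had signals of at least 50 on all 8 arrays. Their summed signal was 35100 to 40600 on the untreated and 52700 to 61400 on the TGF-beta3 adenovirus arrays. With TGF-beta3 10 of the 12 rose (limma), as did 16.3% of all genes tested. The part of this shift in the results below was not tested.

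Markers of other contractile or stromal cells were low. Of 8 smooth muscle markers, MYH11, DES, LMOD1, CNN1 and MYOCD stayed below 20 on all arrays, and the summed signal of the list ran from 84.5 to 104 on the untreated and from 95.6 to 203 on the TGF-beta3 adenovirus arrays, and was 96.8 and 64.9 on the siRNA arrays. SMTN (smoothelin) was the single marker of that list that reached 50, with 93.4 under LacZ and 158.4 under HRAS G12V with TGF-beta3; under HRAS N116Y it had 25.2 untreated and 33.8 with TGF-beta3. Of 7 measured skeletal and cardiac muscle markers 5 stayed below 20 on all arrays. Of 10 fibroblast markers COL1A1 and COL3A1 reached 50, and 5 stayed below 20. The summed signal of that list was 112 to 191 untreated and 261 to 431 with TGF-beta3 on the adenovirus arrays. COL3A1 had signals of 107.2 and 144.1 on the HRAS N116Y arrays and at most 17.8 on the other 4 adenovirus arrays. Among adenovirus arrays of the same TGF-beta3 state, COL3A1 was highest with HRAS N116Y, as TAGLN, MYL9 and CALD1 were. So was the fibroblast sum, which holds COL3A1. COL1A1 was instead highest with HRAS G12V and TGF-beta3, at 287.6 against 252.9 with HRAS N116Y and TGF-beta3. The part of these markers in the results below was not tested.

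TGF-beta3 against no TGF-beta3 was compared over the 3 vectors. Among the 8 tested genes 6 rose and 0 fell: TAGLN, TPM1, CALD1, MYL9, ACTN1 and TPM4. CNN2 and ACTA2 did not pass the test. The rises ranged from 3.77-fold for TAGLN to 1.38-fold for TPM4. Over all 8982 genes tested, 16.3% rose and 17.4% fell (limma, adjusted p under 0.05). The median log2 change was 0.79 over the 8 genes and -0.01 over all genes.

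**Figure D1:**
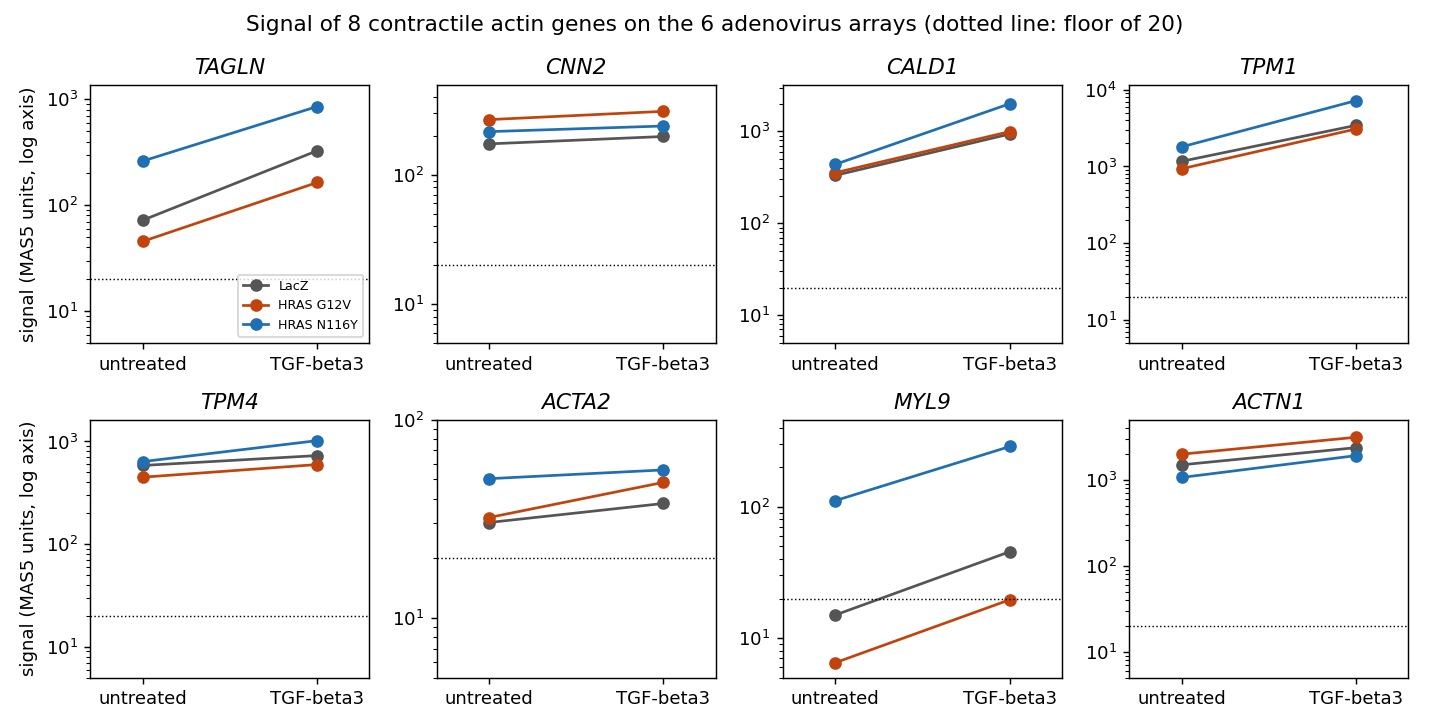
Signal of the 8 tested genes (MAS5 units, log axis) on the 6 adenovirus arrays, untreated and with TGF-beta3; each point is 1 array, lines join the arrays of a vector and the dotted line is the floor of 20. TAGLN, TPM1, TPM4, CALD1, ACTA2 and MYL9 are highest on the HRAS N116Y array with TGF-beta3, and ACTN1 and CNN2 on the HRAS G12V array with TGF-beta3.

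The calponin family members behaved differently from each other. TAGLN, an actin-binding protein best known from smooth muscle, had signals of 72.1 untreated and 327.2 with TGF-beta3 under LacZ, 45.5 and 164.0 under HRAS G12V, and 261.2 and 856.2 under HRAS N116Y. Each vector's treated array was above its untreated array, but the groups overlapped, since the untreated HRAS N116Y array lay above the treated HRAS G12V array. TAGLN rose by 1.92 on the log2 scale with TGF-beta3 (SE 0.14, limma adjusted p = 9.14e-06). CNN2, a calponin found in non-muscle cells, had signals of 172.7 and 197.0 under LacZ, 266.0 and 308.2 under HRAS G12V, and 214.8 and 237.4 under HRAS N116Y. All 3 pairs went up slightly and the groups overlapped; the log2 change was 0.18 (SE 0.13, limma adjusted p = 0.284). CNN2 was read by a single probe set of the kind named _x_at, which Affymetrix uses where probes may match several transcripts.

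The filament-coating genes TPM1 and CALD1 separated the treated from the untreated arrays fully. TPM1, which encodes a tropomyosin of stress fibres, had signals of 1166.3, 933.5 and 1801.1 untreated (LacZ, HRAS G12V, HRAS N116Y) and 3442.0, 3085.8 and 7230.4 with TGF-beta3. Its log2 change was 1.76 (SE 0.12, limma adjusted p = 4.71e-06). CALD1, caldesmon, had 332.1, 355.2 and 437.6 untreated and 935.8, 995.2 and 1999.7 with TGF-beta3. It rose by 1.72 (SE 0.15, limma adjusted p = 1.86e-05). TPM1 and CALD1 were the 2 of the 8 genes with every treated array above every untreated array, a pattern held by 19.4% of all genes tested; none of the 8 showed the opposite pattern, which 22.2% of all genes held. With all probe sets of a gene averaged, including those at the floor, the changes were smaller, at 1.12 for TPM1 and 0.62 for CALD1, and both still passed.

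TPM4, a tropomyosin of non-muscle cells, rose less. Its signals were 583.8, 448.8 and 636.6 untreated and 729.2, 596.1 and 1019.4 with TGF-beta3, in the same vector order. Each pair went up, the groups overlapped, and the log2 change was 0.47 (SE 0.12, limma adjusted p = 0.00969). Averaging its probe sets gave 0.23 and ended the call (adjusted p = 0.132). TPM2, the tropomyosin also found in muscle, was read by 4 probe sets, and none of them reached 20 on any of the 8 arrays; the highest signal of the 1 used was 12.2.

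ACTA2 was dim on all arrays, and MYL9 was dim except under HRAS N116Y. ACTA2 had signals of 30.3, 32.1 and 50.4 untreated and 37.8, 48.3 and 55.8 with TGF-beta3. The groups overlapped, and the log2 change of 0.35 did not pass (SE 0.22, limma adjusted p = 0.249). MYL9 had signals of 15.0, 6.5 and 111.3 untreated and 45.5, 19.6 and 287.5 with TGF-beta3. It rose by 0.85 on the log2 scale (SE 0.28, limma adjusted p = 0.0353), a value that the floor makes smaller, since 3 of the 6 signals were below 20 and were set to 20. Both genes reached a signal of 50 on the HRAS N116Y arrays alone, and passed the filter through them. The call of MYL9 was lost in 5 of 10 alternatives: with a floor of 50 (0.46, adjusted p = 0.187), with no filter (adjusted p = 0.0884), with no vector term (adjusted p = 0.567), without the HRAS N116Y pair (0.59, adjusted p = 0.139) and without the LacZ pair (0.69, adjusted p = 0.0896).

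ACTN1, the crosslinker that bundles stress fibres and anchors them at focal adhesions, had signals of 1490.4, 1980.9 and 1062.3 untreated and 2359.7, 3118.1 and 1907.6 with TGF-beta3. Every vector's pair went up, while the untreated HRAS G12V array lay just above the treated HRAS N116Y array. ACTN1 rose by 0.72 (SE 0.11, limma adjusted p = 0.000521). A fit without the vector term, which leaves the vector differences in the residual, called TPM1 and CALD1 and lost TAGLN, TPM4, ACTN1 and MYL9 (adjusted p = 0.0868, 0.142, 0.0671 and 0.567).

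**Figure D2:**
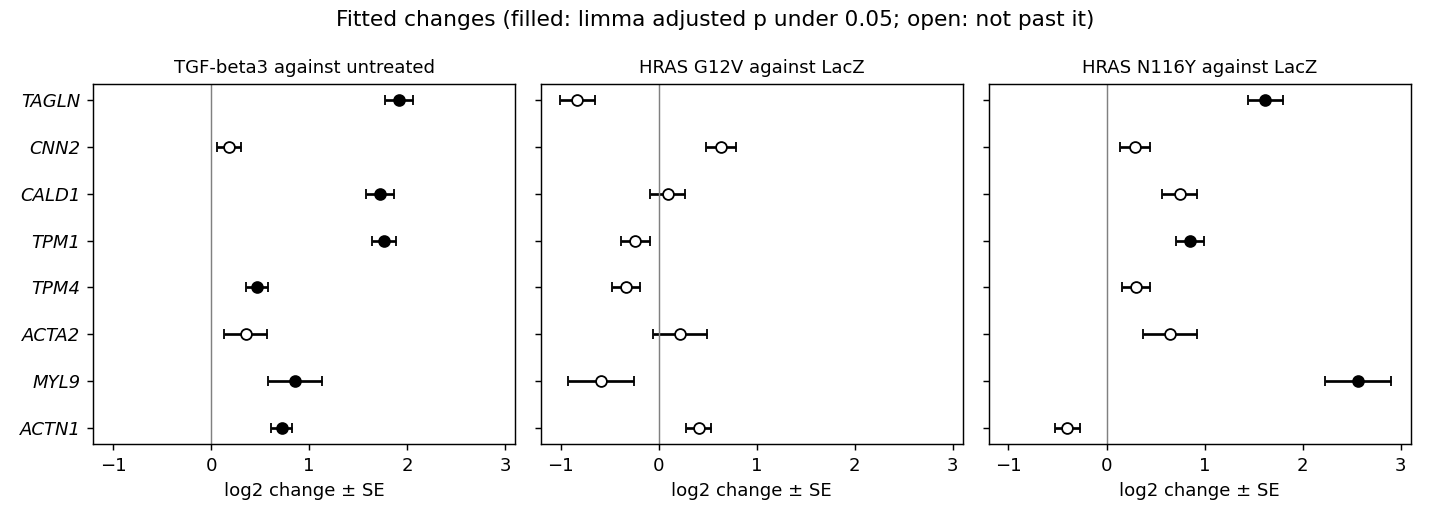
Fitted log2 changes with standard errors for the 8 genes in the comparisons of TGF-beta3 with no TGF-beta3, HRAS G12V with LacZ and HRAS N116Y with LacZ, from 1 fit of the 6 adenovirus arrays; filled points passed an adjusted p of 0.05. The TGF-beta3 changes all lie above 0, while in the vector comparisons ACTN1 lies on the opposite side of 0 from TAGLN and MYL9.

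Within single vectors the size of the response differed between genes, with 1 array against 1 array and no test. Among genes with a signal of 50 on at least 1 array of the pair, TGF-beta3 put 3 of 6 members at least 2-fold higher and 0 lower under LacZ, where 4.22% of all genes were higher and 4.4% lower. Under HRAS G12V it was 3 of 6 higher and 0 lower, against 5.53% and 4.54% of all genes, and under HRAS N116Y 4 of 8 higher and 0 lower, against 4.9% and 4.94%. TAGLN had a log2 ratio of 2.18 under LacZ, 1.85 under HRAS G12V and 1.71 under HRAS N116Y, so its ratio was smallest where its untreated signal was highest. CALD1 had 1.495, 1.486 and 2.192, and TPM1 1.56, 1.73 and 2.01, both largest under HRAS N116Y. TPM4 followed the same order with 0.32, 0.41 and 0.68. The ratios of ACTN1 were 0.66, 0.66 and 0.85 and those of CNN2 0.19, 0.21 and 0.14. The residual SD of the fit had a median of 0.15 over all genes on the log2 scale. That residual holds the interaction of vector and TGF-beta3 itself, and a difference of 2 ratios draws on 4 arrays. The SD is therefore no yardstick for such differences. The ratio of CALD1 under HRAS N116Y exceeded that under LacZ by 0.70, and the ratio of TAGLN was lower by 0.47; these differences were not tested.

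**Figure D3:**
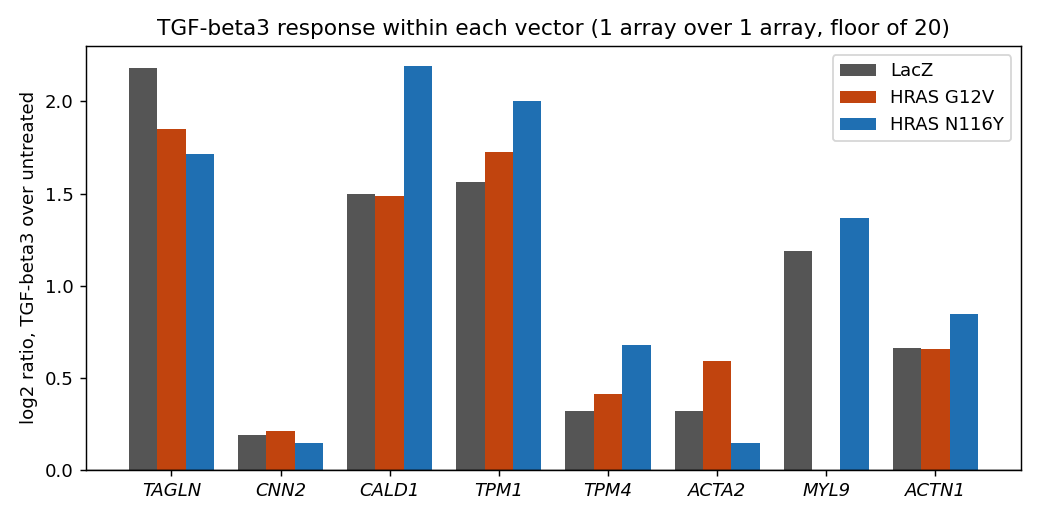
Log2 ratio of the TGF-beta3 array to the untreated array of each vector for the 8 genes, with signals under 20 set to 20; each bar is 1 array over 1 array. The bars of CALD1 and TPM1 are tallest with HRAS N116Y, those of TAGLN with LacZ, and MYL9 has no bar with HRAS G12V because both signals were below 20.

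Dominant negative RAS was compared with the LacZ control over both TGF-beta3 states. TAGLN and TPM1 rose, by 3.08-fold and 1.8-fold, among the 6 members that reached a signal of 50 outside the HRAS N116Y arrays, and 0 of the 6 fell. Over all genes tested 1.58% rose and 0.846% fell. The median log2 change was 0.53 over the 6 members and 0.02 over all genes. MYL9 and ACTA2 entered the fit through their HRAS N116Y signals alone and are described without a count. The signal of MYL9 was 15.0 untreated and 45.5 with TGF-beta3 under LacZ and 111.3 and 287.5 under HRAS N116Y, at least 5.56-fold and 6.32-fold apart; the first is a bound because that LacZ signal was below the floor. TAGLN rose by 1.62 (SE 0.18, limma adjusted p = 0.00123), with 1.86 and 1.39. TPM1 rose by 0.85 (SE 0.15, limma adjusted p = 0.0136), with 0.63 and 1.07, and lost its call with an untrended prior (adjusted p = 0.0687). For TAGLN, TPM1 and MYL9 both HRAS N116Y arrays lay above their LacZ partners. This adds no support, since these genes were picked from the same arrays.

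The other members moved less against LacZ. CALD1 had a log2 change of 0.75 (SE 0.18, limma adjusted p = 0.059), from pair ratios of 0.40 untreated and 1.10 with TGF-beta3. ACTA2 had 0.65 (adjusted p = 0.299), TPM4 0.30 (adjusted p = 0.35) and CNN2 0.29 (adjusted p = 0.42) in limma's test. ACTN1 was the single member with a lower mean, at -0.40 (SE 0.13, limma adjusted p = 0.171), and lay below LacZ in both states (-0.49 and -0.31). Single pairs were read for the 6 members that reached a signal of 50 outside the HRAS N116Y arrays. Without TGF-beta3, TAGLN was at least 2-fold above LacZ (log2 ratio 1.86), where 1.18% of all genes were. With it, TAGLN, CALD1 and TPM1 were (1.39, 1.10 and 1.07), where 3.03% of all genes were. None of the 6 was 2-fold below LacZ, as 0.738% and 1.59% of all genes were. With no filter on dim genes, which tests every gene above the floor on at least 1 array, 0 members passed limma (adjusted p = 0.0556 for TAGLN, 0.0987 for MYL9 and 0.122 for TPM1). With probe sets averaged per gene, which left MYL9 too dim to be tested, TAGLN alone passed (1.13, adjusted p = 0.0394).

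Active RAS was compared with LacZ in the same way. None of the 8 members passed (limma), as was true of nearly all genes: 0% of those tested rose and 0.0445% fell. An unadjusted p under 0.05 was reached by 4 of the 8 members (TAGLN, CNN2, ACTN1 and TPM4) and by 6.39% of all genes, 305 with a higher and 269 with a lower mean. TAGLN had a log2 change of -0.83 (SE 0.18, adjusted p = 0.418), with pair ratios of -0.66 untreated and -0.996 with TGF-beta3. CNN2 had 0.63 (SE 0.15, adjusted p = 0.514), with 0.62 and 0.65. ACTN1 had 0.41 (adjusted p = 0.68) and TPM4 -0.34 (adjusted p = 0.752). TPM1, CALD1, ACTA2 and MYL9 had -0.24, 0.09, 0.22 and -0.59. In single pairs 0 of 6 members were 2-fold higher or lower, against 0.173% and 0.231% of all genes untreated and 0.25% and 0.341% with TGF-beta3. The median log2 change was -0.07 over the 8 genes and 0.01 over all. Fitted alone, with 1 residual degree of freedom, the 4 arrays of this comparison called TAGLN lower (adjusted p = 0.0385) and CNN2 higher (adjusted p = 0.0308).

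The RAS vectors were then set against each other. TAGLN, TPM1 and TPM4 were lower and ACTN1 was higher with HRAS G12V than with HRAS N116Y, 4 of the same 6 members, while 3.8% of all genes fell and 2.58% rose. This comparison shares its arrays with those against LacZ. The median log2 change was -0.65 over the 6 members and -0.01 over all genes. MYL9, again left out of the count, was below the floor on both HRAS G12V arrays (6.5 and 19.6), so its signals under HRAS N116Y were at least 5.56-fold higher untreated and at least 14.4-fold higher with TGF-beta3. TAGLN fell by 2.45 (SE 0.18, limma adjusted p = 5.68e-05), TPM1 fell by 1.09 (SE 0.15, adjusted p = 0.00159) and TPM4 fell by 0.64 (SE 0.14, adjusted p = 0.024). TPM4 lost its call in 3 of 8 alternatives, and with probe sets averaged TPM1 and ACTN1 lost theirs too (adjusted p = 0.0593 and 0.0831). ACTN1 rose by 0.80 (SE 0.13, limma adjusted p = 0.00506), with HRAS G12V above HRAS N116Y in both states (0.90 and 0.71). CALD1 had a log2 change of -0.65 (SE 0.18, limma adjusted p = 0.0563), CNN2 one of 0.34 (adjusted p = 0.225) and ACTA2 one of -0.43 (adjusted p = 0.396). In single pairs of the same 6 members TAGLN was at least 2-fold lower with HRAS G12V untreated (log2 ratio -2.52), where 2.49% of all genes were. With TGF-beta3, TAGLN, TPM1 and CALD1 were (-2.38, -1.23 and -1.01), where 3.73% of all genes were. None of the 6 was 2-fold higher, where 1.06% and 2.51% of all genes were. In both TGF-beta3 states HRAS N116Y was highest and HRAS G12V lowest for TAGLN, TPM1 and TPM4, and ACTN1 had the reverse order. HRAS N116Y was also highest for MYL9, whose untreated LacZ and HRAS G12V signals (15.0 and 6.5) were too dim to be ordered. The share of all genes that kept their vector order in both states was not computed. LacZ was lowest for CALD1 and ACTA2, with HRAS N116Y highest, and for CNN2, with HRAS G12V highest. TAGLN on the HRAS N116Y array with TGF-beta3 was 18.8-fold above its signal on the untreated HRAS G12V array, while the same range was 7.75-fold for TPM1 and 2.27-fold for TPM4.

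The other probe sets of the members were used as a check. Of 39 single-symbol probe sets, 14 were below 20 on all 8 arrays and 19 entered a fit over 15421 probe sets. Of these 19, 15 rose with TGF-beta3 and 0 changed with HRAS G12V against LacZ (limma). The 15 include a CALD1 probe set of the _x_at kind that reached 50 only on TGF-beta3 arrays. It had 70.1 under HRAS G12V and 86.3 under HRAS N116Y there. It entered the fit through those arrays, so its rise adds no support. With HRAS N116Y against LacZ both tested probe sets of TAGLN and all 3 of TPM1 rose. The MYL9 and ACTA2 probe sets, which entered through their HRAS N116Y signals, are left out there. Over all probe sets of that fit 14.6% rose with TGF-beta3, 1.12% rose with HRAS N116Y, and 0% rose and 0.013% fell with HRAS G12V. The second tested probe set of TAGLN rose by 2.43 with TGF-beta3 and by 1.85 with HRAS N116Y, against 1.92 and 1.62 for the one used. The 3 tested probe sets of TPM1 rose by 1.59 to 1.78 with TGF-beta3. Those of CALD1, without the one that entered through TGF-beta3 arrays, rose by 0.90 to 1.72. The probe sets of ACTN1 disagreed in size: the one used rose by 0.72 with TGF-beta3, and the others, both of the _x_at kind, by 0.80 and 1.83 (SE 0.12 and 0.11). All 3 had lower means with HRAS N116Y than with LacZ, from -0.47 to -0.30, and none passed. For TPM4 the probe set used passed with TGF-beta3 (0.47), and the other 2, at 0.35 and 0.32, did not (adjusted p = 0.0746 and 0.167).

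**Figure D4:**
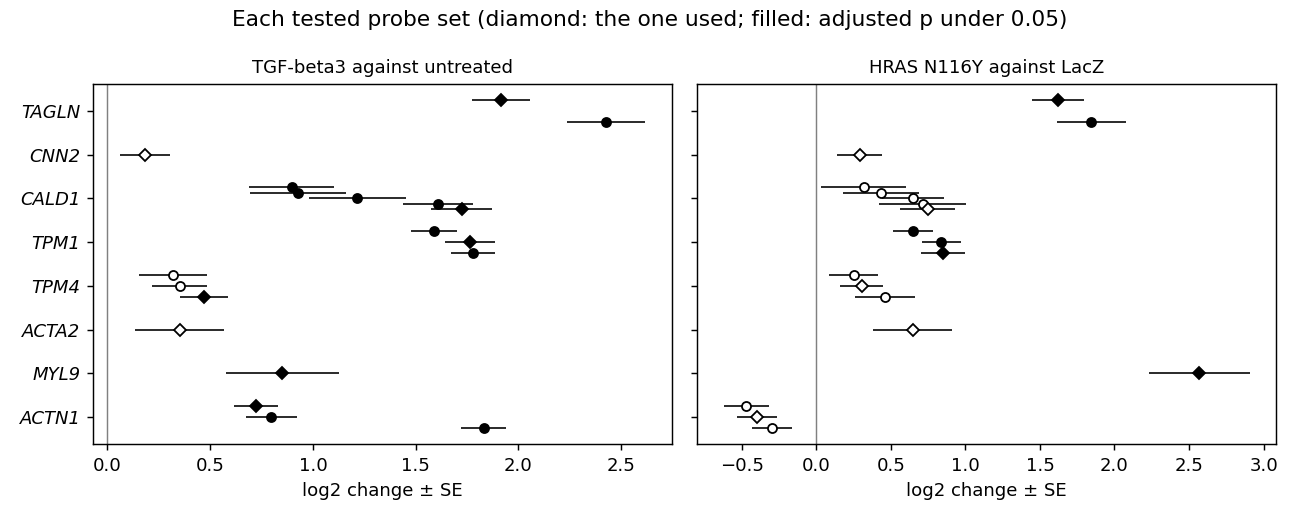
Log2 change and standard error of each of the 19 tested probe sets of the members, for TGF-beta3 against untreated and HRAS N116Y against LacZ, from the fit of 15421 probe sets; diamonds mark the probe set used for the gene and filled points passed an adjusted p of 0.05. The probe sets of ACTN1 spread from 0.72 to 1.83 with TGF-beta3 and lie below 0 with HRAS N116Y.

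Relatives of these genes and the machinery around them were read from gene lists drawn up by textbook role. Of 9 tested family relatives 4 rose with TGF-beta3 and 0 fell, where 16.3% of all genes tested rose and 17.4% fell. Their median log2 change was 0.37 against -0.01 over all genes. CNN3, a further calponin, rose by 0.69, LIMA1, an actin crosslinker, by 0.57, ACTB, beta-actin, by 0.54 and MYL6, a myosin light chain, by 0.51. With its probe sets averaged, LIMA1 had a log2 change of -0.06. None of the 9 passed in any vector comparison. MYLK, the kinase that phosphorylates the light chain encoded by MYL9, had signals of 117.1 and 324.3 under HRAS N116Y and 59.5 to 74.6 on the other 4 adenovirus arrays. It was lower with HRAS G12V than with HRAS N116Y (log2 change -1.55, SE 0.37, limma adjusted p = 0.0324).

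Of 19 tested SRF and MRTF factors and targets 9 rose with TGF-beta3 and 0 fell, with a median of 0.35. Over all genes tested 16.3% rose and 17.4% fell. CCN2 and CCN1, matricellular proteins, rose by 2.73 and 1.61, TGFB1I1 (HIC-5, a focal adhesion adaptor) by 1.85 and EGR1, an immediate early factor, by 1.43. CCN2 had signals of 24.8, 18.6 and 27.4 untreated and 145.6, 127.4 and 211.8 with TGF-beta3 (LacZ, HRAS G12V, HRAS N116Y). It entered the fit through the treated arrays alone, so its place among the 9 adds no support. With a floor of 50 its change was 1.66. EGR1 had signals of 118.4 and 103.9 under HRAS N116Y and went up in the other vectors (128.7 to 473.0 and 177.7 to 1080.3). PDLIM1, an actin-linked PDZ and LIM protein, rose by 0.96 with HRAS N116Y against LacZ. It was the 1 member of this list to pass there, where 1.58% of all genes rose. EGR1 and TGFB1I1 differed in opposite directions between HRAS G12V and HRAS N116Y (1.98 and -0.81). Of 14 tested focal adhesion genes 11 rose and 0 fell with TGF-beta3, against the same 16.3% and 17.4% of all genes, with a median of 0.65. NEDD9, a scaffold of the CAS family, rose by 2.88, the integrins ITGA5 and ITGAV by 2.05 and 1.07, and FERMT1 (kindlin-1) by 1.98. NEDD9 and TNS3 (tensin 3) rose with HRAS N116Y against LacZ, by 1.27 and 1.16, where 1.58% of all genes rose. With TGF-beta3 TNS3 had a log2 change of -0.285 and did not pass.

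The genes whose pattern over the 6 adenovirus arrays was most like that of TAGLN were found by the root mean square difference of log2 signals after centring each gene, among 8850 genes above 20 on all 6. They were PGM2L1 (0.39), SLC2A12 (0.42), CDKN2B (0.42), BAMBI (0.49) and IVL (0.51). CDKN2B, a CDK inhibitor, had signals of 142.3, 75.6 and 282.8 untreated and 683.5, 399.4 and 2215.5 with TGF-beta3, the same vector order as TAGLN in both states. It was picked for its likeness to TAGLN on these same arrays, so the shared order adds no support. TPM1 ranked 12th by this measure (0.59) and CALD1 33rd (0.78), while ACTN1 ranked 5701st (1.48).

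The siRNA arrays were compared with each other, 1 array against 1 array, with no test. Of the 5 members with a signal of 50 on at least 1 of them, CNN2 was at least 2-fold apart, at 84.1 with control siRNA and 331.5 with p53 siRNA (log2 ratio 1.98). Over all genes with that signal, 2.35% were at least 2-fold higher and 6.16% lower. TPM1 had signals of 1370.7 and 916.8 (log2 ratio -0.58), CALD1 259.4 and 209.2 (-0.31), TPM4 223.6 and 212.2 (-0.08) and ACTN1 1689.1 and 1857.8 (0.14). ACTA2 had 36.5 and 22.5. TAGLN and MYL9 were below 20 on both arrays, so the comparison gives no ratio for them. The high 3′ to 5′ actin ratio of both arrays bears on these signals to an extent that was not tested, and CNN2 rests on the single _x_at probe set.

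**Figure D5:**
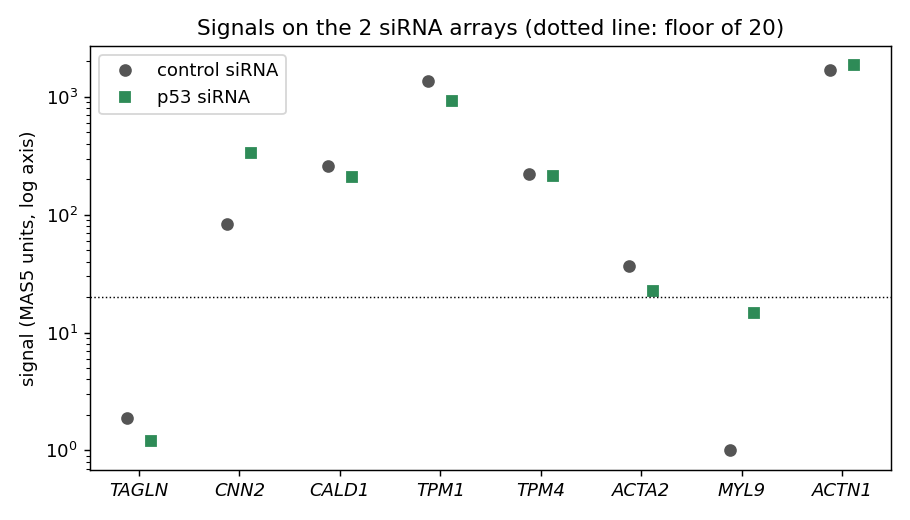
Signals of the 8 genes (MAS5 units, log axis) on the arrays of cells with control siRNA (circles) and p53 siRNA (squares), 1 array each; the dotted line is the floor of 20. Among the 6 genes above the floor on both arrays CNN2 shows the widest gap, from 84.1 to 331.5, and TAGLN and MYL9 lie below the floor on both arrays.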

How the data were processed

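RNA of 8 HaCaT samples was hybridised to Affymetrix arrays, 1 per sample. The authors deposited 1 linear signal intensity per probe set, for which the submitters' processing notes name MAS5 5.0. Groups follow the sample titles and the TGF-beta field of the labels; the source name of the 6 infected samples gives the opposite TGF-beta state and was set aside; were it right, every TGF-beta3 direction here would turn. Nothing in the labels separates cultures, so a p-value reflects only spread between arrays, possibly technical, and the number of arrays limits precision.

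Each array was scaled so that its mean without the outer 2% was 100, values under 20 were raised to 20 (the floor, which shrinks changes of dim genes) and log2 was taken; printed signals are the deposited ones. Of 54675 probe sets, 41097 had 1 gene symbol, 1801 several and 11777 none; symbols were updated through RefSeq's gene table, which matched 41043. For each gene, the probe set with the highest mean over the 8 arrays was used. Genes with a signal of 50 on at least 2 of the 6 adenovirus arrays entered limma (3.58.1, R 4.3.3), with vector and TGF-beta3 as additive terms, which leaves 2 residual degrees of freedom that also hold the interaction. The eBayes prior was trended, p-values were adjusted by Benjamini-Hochberg over all genes, and an adjusted p under 0.05 was called. Single pairs were described by log2 ratios. The fit was tested on simulated data.

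The rule for named genes took the members, HRAS, up to 4 called genes per list for TGF-beta3 and up to 2 for each vector comparison, and the 5 genes most like TAGLN; the markers of other cell types and FLNA are named besides. The members and lists were chosen with earlier results of these data known. The counts of 1 further gene list are not reported here. Alternatives were other floors, filters, normalization, probe sets and prior, fewer arrays and no vector term.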

Additional observations from a re-analysis of the deposited data

How the results depend on the processing

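The vector term pairs the treated and untreated array of each vector; the labels give no replicate number shared between groups that could serve as a further block. Without the vector term, 2 members rose instead of 6. Leaving out each vector's pair in turn gave 5 to 6 rising members and 0 falling. For HRAS N116Y against LacZ, 2 of the 6 members not selected by HRAS N116Y signals rose (TAGLN and TPM1), as 1.58% of all genes did. With no filter on dim genes (genes at the floor on all 6 arrays aside) 0 members passed. With probe sets averaged TAGLN alone passed, and with an untrended prior TPM1 lost its call. With only the 4 arrays compared CALD1 was called higher too. MYL9 and ACTA2 are left out of this count. For HRAS G12V against LacZ the fit of only the 4 arrays compared gave 1 rising and 1 falling member instead of 0. For HRAS G12V against HRAS N116Y, 1 of the 6 members without MYL9 and ACTA2 rose and 3 fell, where 2.58% and 3.8% of all genes did. Averaged probe sets gave 0 rising members and 1 falling. In that setting single pairs at least 2-fold higher numbered 1 (LacZ) and 2 (HRAS N116Y) for TGF-beta3, instead of 3 and 4. For HRAS N116Y against LacZ with TGF-beta3 they numbered 2 instead of 4, where 3.03% of all genes were in the reported setting. MYL9 was counted in the 4 only through its HRAS N116Y signal, so these numbers are no result about the members. The setting averages in probe sets at the floor. Quantile normalization put 1 member (TAGLN) at least 2-fold lower with HRAS G12V against LacZ under TGF-beta3, where its ratio was just short of that. LIMA1 had a TGF-beta3 change of -0.061 with averaged probe sets, against 0.57, and was the 1 named gene to turn direction.

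Over the alternatives the genes called among all tested ranged from 953 to 1860 rising (reported 1466) and 1049 to 2111 falling (1567) for TGF-beta3, from 9 to 275 (142) and 3 to 157 (76) for HRAS N116Y against LacZ, from 0 to 62 (0) and 0 to 65 (4) for HRAS G12V against LacZ, and from 40 to 354 (232) and 95 to 431 (341) for HRAS G12V against HRAS N116Y. The fits of 4 arrays leave 1 residual degree of freedom. Except where a value shows the cause, the cause was not tested. MYL9 and ACTA2 lie near the floor, where signal limits precision most.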
